A study of Homo sapiens with 20 samples.

Results

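All-trans retinoic acid (ATRA) and 9-cis retinoic acid (9-cis RA) were compared directly after 24 h in Mel202 cells, a line grown from a human uveal melanoma. Both compounds were given at 100 nM in the regular medium of the cells, and each group received the ethanol (EtOH) in which the compound was dissolved. The arrays were chosen by their treatment labels alone: 4 of the 20 arrays of the series are labelled ATRA at 24 h and 3 are labelled 9-cis RA at 24 h. Arrays whose titles share a number were averaged, so these 7 arrays became 5 samples of 14 in the whole series, with 3 samples for ATRA and 2 for 9-cis RA. The EtOH cells at 24 h (3 arrays, 2 samples) did not enter the comparison, and their values are given only as the level without added retinoid. The remaining arrays hold cells kept for 48 h under the same treatments, and the 5 retinoid samples among them were used for the same comparison at the later time.

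Every group is this 1 cell line, which came from a uveal tumour that had recurred after irradiation, carries the GNAQ mutations Q209L and R210K per the labels, and is BRAF wild type. The labels do not say whether samples came from separate cultures, so a p-value here speaks only of how far these samples vary among themselves, and that variation may be technical. Samples are named by the replicate numbers of their arrays: ATRA replicates 1-2, 3 and 4, and 9-cis RA replicates 1 and 2-3. Values are log2 intensities after background correction and quantile normalisation, and a difference is the ATRA mean minus the 9-cis RA mean, with its standard error (SE) and, where given, its 95% interval. A gene passed at a limma p-value adjusted by Benjamini and Hochberg over 10673 genes under 0.05.

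Retinoic acids are the active forms of vitamin A. ATRA binds the retinoic acid receptors (RARs), which sit on DNA in pairs with retinoid X receptors (RXRs). 9-cis RA is the isomer of ATRA in which the geometry of a side-chain double bond is changed, and it binds the RARs and also the RXRs. RXRs are further the partners of the liver X receptors (LXRs, which sense oxysterols), the peroxisome proliferator-activated receptors (PPARs, which sense fatty acids) and the thyroid hormone and vitamin D receptors. The comparison sets a ligand of the RARs beside a ligand of both receptor families at a matched dose, as 1 pair of compounds at each time.

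Depth and quality values that bear on the comparison were as follows. The 20 arrays fell into sets with 15870 to 17128 detected probes (12 arrays, set 1) and with 12561 to 14301 (8 arrays, set 2), and each compound at 24 h had arrays in both. Of the ATRA arrays, 2 were in set 1 and 2 in set 2, and of the 9-cis RA arrays 2 were in set 1 and 1 in set 2. ATRA replicate 4 was measured in set 2 alone, where it had the fewest detected probes of the series (12561). All 7 melanocyte lineage markers that have a probe were detected on all 7 arrays, with summed linear intensities of 55470 to 56340 in ATRA samples and 53140 to 54620 in 9-cis RA samples. Of the fibroblast markers with a probe, 2 of 5 were detected on all 7 arrays and COL1A1 and DCN on none (summed intensities of 1459 to 1549 with ATRA and 1259 to 1332 with 9-cis RA), and POSTN on 1 array. Of 4 epithelial markers with a probe, CDH1 was detected on all 7 arrays, ESRP1 on 6, MUC1 on 4 and CLDN4 on 1 (summed intensities of 297.5 to 349.5 with ATRA and 325.4 to 327.6 with 9-cis RA). Of 3 leukocyte markers with a probe, CD68 was detected on all 7 arrays, LYZ on 2 and CD14 on none, and of 2 endothelial markers EMCN was detected on all 7 and KDR on none. The part of these levels in the results below was not tested.

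ATRA replicate 4 stood apart from the other ATRA samples. Over all genes, the first principal component of the 5 samples held 51.1% of the variance and placed ATRA replicates 1-2 and 3 at -17 and -22.5, ATRA replicate 4 at 15.1, and 9-cis RA replicates 1 and 2-3 at 13.7 and 10.7. On that component the sample labelled ATRA replicate 4 thus lay with the 9-cis RA samples. On the second component (29.8%) it stood at 19.7, with the other ATRA samples at 5.35 and -3.49 and the 9-cis RA samples at -18.2 and -3.41. ATRA replicate 1-2 and 9-cis RA replicate 2-3 also have an array in set 2, so the samples can be compared within that set. There, replicate 4 was nearer to the ATRA array than to the 9-cis RA array in 38% of all genes. Its label was kept as given, and whether that label is right was not tested; a wrong label would alter every ATRA mean below. The results are therefore also given without this sample where they turn on it.

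Few genes passed between the isomers in the averaged samples, and the number depended on the setting. At 24 h, 2 of 10673 genes (0.0187%) passed the test, SERPINA3 and ECM1, and both were lower with ATRA than with 9-cis RA; no gene passed in the other direction. At an unadjusted p under 0.05 there were 1261 genes (11.8%), of which 386 (3.62%) were higher with ATRA and 875 (8.2%) lower. Over all genes the median difference was -0.04, the middle of the distribution ran from -0.45 at its 5th percentile to 0.40 at its 95th, and the median SE was 0.165. A fitted difference of 2-fold or more was found for 24 genes, 11 higher (0.103%) and 13 lower (0.122%) with ATRA. The authors' own normalised values, tested in the same way, gave 10 passing genes with 3 of them higher. Without ATRA replicate 4, 6 genes passed, and without either 9-cis RA sample 0 did. With the array set as a term 21 passed. Within array set 1 alone, which leaves out ATRA replicate 4, 1012 did (9.48%). Set 2 holds a lone 9-cis RA array at 24 h and so gives no comparable count. The count moves this far with the setting, so neither 2 nor 1012 measures how alike the isomers are.

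SERPINA3 encodes alpha-1-antichymotrypsin, a secreted inhibitor of serine proteases that is also an acute phase protein. It gave log2 intensities of 4.89, 5.00 and 4.64 in the ATRA samples, against 7.29 and 7.23 in the 9-cis RA samples, while the EtOH samples were at 4.46 and 4.46. The 9-cis RA samples stood well apart from all others, and the ATRA samples were close to the EtOH level. Its probe was detected on 0 of 4 ATRA arrays and 0 of 3 EtOH arrays but on 3 of 3 9-cis RA arrays. On the background-corrected scale, the intensity with ATRA was thus at least 2.54-fold lower than with 9-cis RA. The fold is set against the lowest signal that counted as detected. The fitted difference, which uses the signal below detection, was -2.42 ± 0.20 (SE, 95% interval -2.85 to -1.98, adjusted p = 0.00185). Without background correction the difference was -1.02, and in the authors' normalised values it was -0.71, with SERPINA3 past the test in both. Both are smaller than the 2.54-fold bound, which holds only on the scale it was computed on. In such bulk samples, fewer cells with a transcript and less transcript per cell cannot be told apart, here and below.

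ECM1 encodes a secreted extracellular matrix glycoprotein and belongs to the genes that are read as raised in class 2 uveal melanomas, which spread more often. Its log2 intensities were 8.23, 8.11 and 8.13 in the ATRA samples, 9.19 and 9.29 in the 9-cis RA samples and 8.14 and 8.15 in the EtOH samples. All ATRA samples thus lay at the EtOH level, and both 9-cis RA samples lay above every other sample. ECM1 was lower with ATRA than with 9-cis RA, with a difference of -1.09 ± 0.11 (95% interval -1.33 to -0.84, adjusted p = 0.00707), a ratio of 2.12. A second ECM1 probe had a difference of -0.35 ± 0.21 at 24 h. None of the other 4 measured class 2 genes passed, and the class 2 median was -0.19.

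Leaving out either 9-cis RA sample left 1 sample in that group and ended both calls (adjusted p = 0.0723 and 0.0572 for SERPINA3, and 0.14 and 0.151 for ECM1), although the differences of SERPINA3 and ECM1 kept their sign. Leaving out any 1 of the ATRA samples kept both calls; without ATRA replicate 4 the differences were -2.32 (SERPINA3, adjusted p = 0.00593) and -1.07 (ECM1, adjusted p = 0.0306).

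**Figure D1:**
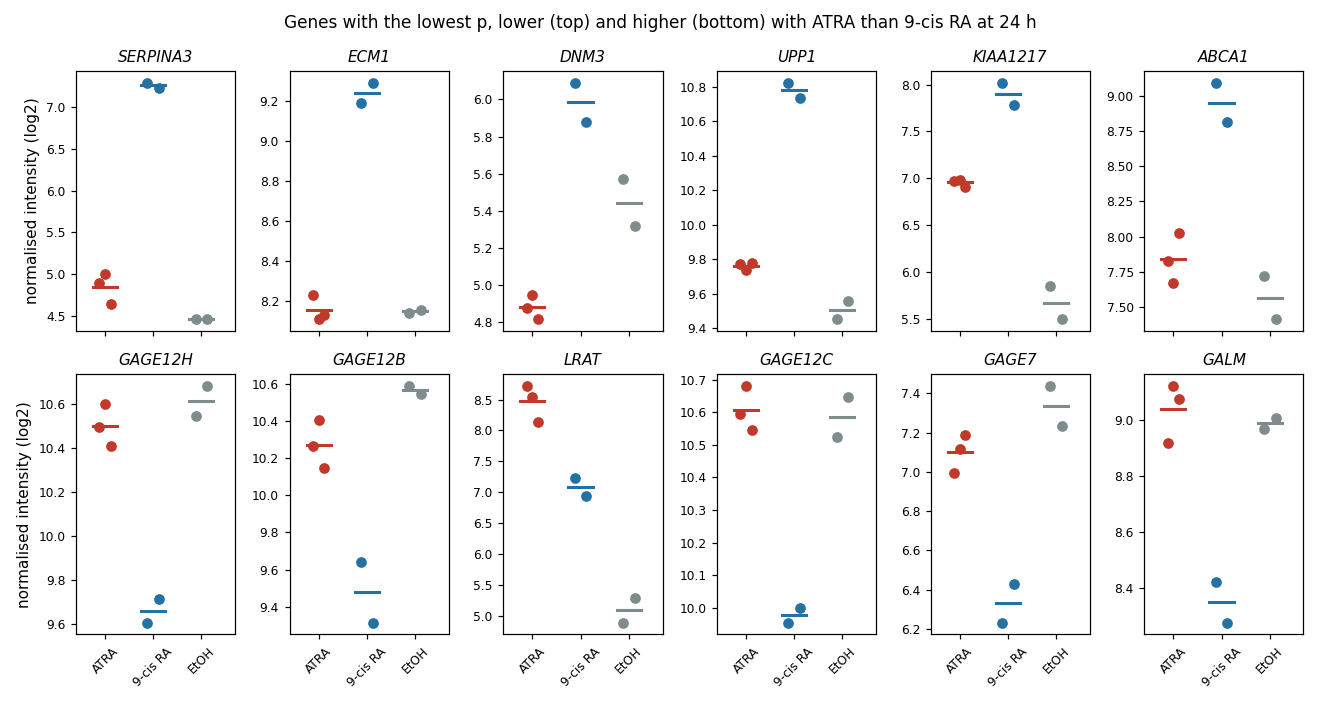
Normalised log2 intensity of the 6 genes with the lowest p among those lower with ATRA (top row) and among those higher with ATRA (bottom row) at 24 h. Each point is a sample (3 ATRA, 2 9-cis RA, 2 EtOH), the bar is the group mean, and each panel has its own axis. In the top row the 9-cis RA samples lie above all ATRA samples, and in the bottom row below them. SERPINA3 and ECM1 passed the test.

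The sequences before the transcription start are printed for the genes at the centre of the comparison: both passing genes, ABCA1, whose promoter is a textbook site of LXR and RXR pairs, and LRAT, which was the highest of the retinoid genes with ATRA. They are 250 bases 5′ to the RefSeq start in GRCh38.p14, on the strand of the gene, at chr14:94612141-94612390 (SERPINA3, plus strand), chr1:150507859-150508108 (ECM1, plus strand), chr9:104928156-104928405 (ABCA1, minus strand) and chr4:154743750-154743999 (LRAT, plus strand). Capitals mark matches to the nuclear receptor half-site AGGTCA on either strand, or to direct repeats of NGGTNA spaced by 1, 4 or 5 bases. These are some of the spacings used by RXR pairs, and repeats with other spacings were not searched for.
SERPINA3: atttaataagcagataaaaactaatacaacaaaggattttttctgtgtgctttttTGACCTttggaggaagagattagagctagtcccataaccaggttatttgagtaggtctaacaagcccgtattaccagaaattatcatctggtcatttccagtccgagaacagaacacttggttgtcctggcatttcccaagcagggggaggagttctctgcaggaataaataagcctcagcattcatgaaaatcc
ECM1: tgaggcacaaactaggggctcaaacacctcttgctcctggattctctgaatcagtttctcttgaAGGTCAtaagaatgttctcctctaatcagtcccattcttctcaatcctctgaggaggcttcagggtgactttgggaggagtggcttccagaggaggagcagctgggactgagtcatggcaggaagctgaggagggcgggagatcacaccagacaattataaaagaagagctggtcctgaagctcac
ABCA1: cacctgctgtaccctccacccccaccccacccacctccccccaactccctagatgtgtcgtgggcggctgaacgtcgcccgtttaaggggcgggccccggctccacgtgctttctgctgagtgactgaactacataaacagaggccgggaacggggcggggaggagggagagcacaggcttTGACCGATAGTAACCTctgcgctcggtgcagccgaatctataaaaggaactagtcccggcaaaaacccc
LRAT: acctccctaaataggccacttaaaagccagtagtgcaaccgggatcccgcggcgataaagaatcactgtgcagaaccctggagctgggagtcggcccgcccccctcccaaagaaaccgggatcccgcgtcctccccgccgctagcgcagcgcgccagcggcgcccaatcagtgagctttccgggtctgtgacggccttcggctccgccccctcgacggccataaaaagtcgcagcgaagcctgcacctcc

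SERPINA3 held a single AGGTCA on its minus strand, 195 bases before the start, and ECM1 held a single one on its plus strand, 186 bases before the start. ABCA1 held a repeat with spacing 4, which begins 69 bases before the start and reads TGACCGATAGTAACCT on the strand of the gene. LRAT had no match of either kind in this window. The windows of UPP1 and CYP26B1 were searched as well and had no match of either kind, so 3 of the 6 windows searched held one. AGGTCA occurs in 12.1% of 35116 RefSeq promoter windows of this length, an NGGTNA repeat with spacing 1, 4 or 5 in 1.59%, and one with spacing 4 in 0.53%. These matches are descriptions of the letters, not of binding.

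Among the genes that did not pass, 4 more were lower with ATRA at the lowest p. ABCA1, the exporter of cellular cholesterol, had log2 intensities of 7.83, 7.67 and 8.03 in ATRA samples, 9.09 and 8.81 in 9-cis RA samples and 7.72 and 7.42 in EtOH samples. The 9-cis RA samples were above all others, and the ATRA samples overlapped the EtOH range. The difference was -1.11 ± 0.16 (95% interval -1.46 to -0.75, adjusted p = 0.0544). UPP1, uridine phosphorylase, which splits uridine into uracil and ribose phosphate, read 9.77, 9.74 and 9.78 with ATRA, 10.83 and 10.74 with 9-cis RA and 9.45 and 9.56 with EtOH. The ATRA samples lay tightly together between EtOH and 9-cis RA, with a difference of -1.02 ± 0.14 (adjusted p = 0.0516), and a second, weaker UPP1 probe had -0.17 ± 0.28.

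KIAA1217 was graded in the same order: 6.97, 6.99 and 6.91 in ATRA samples, 8.02 and 7.79 in 9-cis RA samples and 5.85 and 5.49 in EtOH samples, a difference of -0.95 ± 0.14 (adjusted p = 0.0544). DNM3, a dynamin family GTPase that acts in membrane fission, read 4.88, 4.95 and 4.82 with ATRA, 6.09 and 5.88 with 9-cis RA and 5.57 and 5.32 with EtOH. It was detected on 0 of 4 ATRA arrays and 2 of 3 9-cis RA arrays. On the background-corrected scale the ratio is bounded only as at least 1.05-fold lower with ATRA (fitted difference -1.10 ± 0.14, adjusted p = 0.0502).

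These values lie just outside the threshold, and the calls move with the setting. Without background correction and in the authors' values the differences were -0.84 and -0.72 for ABCA1, -0.94 and -0.91 for UPP1, -0.59 and -0.46 for KIAA1217 and -0.38 and -0.25 for DNM3. ABCA1 passed under 9 of 17 other settings, the one without ATRA replicate 4 among them (-1.20, adjusted p = 0.0489), UPP1 and KIAA1217 under 6 of 17 each and DNM3 under 3 of 16. When arrays were fitted singly, with a term for the array set and a random effect of the shared number, 21 genes passed, 16 lower and 5 higher with ATRA. Those 21 include all 6 genes described so far, and also VGF, a secreted neuropeptide precursor, LY96, the partner of the lipopolysaccharide receptor TLR4, TNFRSF12A, the receptor of the cytokine TWEAK, and GPAT3, which starts glycerolipid synthesis. VGF, LY96, TNFRSF12A and GPAT3 were picked out after their values were seen, and their differences in the model without the set term were -0.78, -0.74, -0.77 and -0.88.

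Of the genes higher with ATRA, none passed. LRAT, which esterifies retinol for storage and is itself a retinoic acid response gene, had the largest difference among the 6 with the lowest p. Its log2 intensities were 8.72, 8.55 and 8.14 in ATRA samples, 7.23 and 6.94 in 9-cis RA samples and 4.89 and 5.29 in EtOH samples, where it was detected on 0 of 3 arrays. Every ATRA sample was above both 9-cis RA samples, as in 10.9% of all genes, and all retinoid samples were above EtOH for LRAT. The difference was 1.38 ± 0.24 (95% interval 0.86 to 1.91, adjusted p = 0.114), a ratio of 2.61, and LRAT passed in 3 of 17 other settings: with a term for the array set (1.48, adjusted p = 0.0017), within set 1 (1.57, adjusted p = 0.00295) and with an intensity trend (adjusted p = 0.0399). Within set 2 its difference was 1.52 and did not pass. It was smaller without background correction (0.94, adjusted p = 0.0995) and in the authors' values (0.76, adjusted p = 0.202), and without ATRA replicate 4 it was 1.55 (adjusted p = 0.0613).

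The other low p values in this direction were from GAGE genes, a family of cancer-testis antigens in X-linked near-identical copies. GAGE12H read 10.49, 10.60 and 10.41 with ATRA, 9.61 and 9.71 with 9-cis RA and 10.54 and 10.68 with EtOH, and the difference was 0.84 ± 0.12 (adjusted p = 0.0516). Here the 9-cis RA samples were low and the ATRA samples overlapped EtOH. GAGE12B, GAGE12C and GAGE7 had differences of 0.79 ± 0.14, 0.63 ± 0.12 and 0.77 ± 0.16 (adjusted p = 0.114, 0.149 and 0.199). Under other settings GAGE12H passed in 6 of 17, among them without background correction (0.76, adjusted p = 0.00422) and in the authors' values (0.73, adjusted p = 0.00552), GAGE12B in 5, GAGE12C in 3 and GAGE7 in 1. Their probes may read each other's transcripts, so they count as 1 uncertain family signal. GALM, galactose mutarotase, was at 8.92, 9.12 and 9.07 with ATRA, 8.42 and 8.28 with 9-cis RA and 8.97 and 9.01 with EtOH (difference 0.69 ± 0.14, adjusted p = 0.209), and passed in 1 of 17 other settings.

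No classical target gene of the retinoic acid receptors passed. CYP26A1, the enzyme that hydroxylates and so clears retinoic acid, read 11.00, 10.88 and 10.80 with ATRA, 11.29 and 11.07 with 9-cis RA and 4.59 and 4.68 with EtOH, where it was detected on 0 of 3 arrays. The isomers were far above EtOH and differed by -0.29 ± 0.12 (95% interval -0.55 to -0.02, adjusted p = 0.417). The other CYP26A1 probes had 0.09 and -0.27. CYP26B1, a related hydroxylase, read 6.63, 6.32 and 6.52 with ATRA, 5.93 and 5.96 with 9-cis RA and 5.44 and 5.74 with EtOH. Its groups did not overlap, as in 10.9% of all genes in this direction. Its difference of 0.54 ± 0.13 (adjusted p = 0.276) did not pass, and was 0.23 without background correction and 0.16 in the authors' values.

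RARB, a receptor whose gene is a classical RAR target, was at 8.30, 8.36 and 8.47 with ATRA, 8.38 and 8.40 with 9-cis RA and 7.15 and 6.98 with EtOH. The isomers overlapped, with a difference of -0.01 and a 95% interval of -0.34 to 0.32. Other RARB probes had 0.32 ± 0.36 and 0.15 ± 0.15. DHRS3, which reduces retinal to retinol, had a difference of -0.30 (95% interval -0.65 to 0.05), and the corepressor NRIP1 one of 0.22 (-0.08 to 0.52). ALDH1A2, which makes retinoic acid from retinal, had -0.14 (-0.40 to 0.12), and its second probe 0.26. None of these intervals excludes a modest difference, and a missed threshold does not show that the isomers act alike.

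Of 9 measured retinoic acid response genes none passed; 2 were higher and 1 lower at an unadjusted p under 0.05 (LRAT, CYP26B1, CYP26A1), against 3.62% and 8.2% of all genes, and the median difference was 0.08. Retinoid metabolism and transport had 17 measured members, with 3 higher and 2 lower at that level, against the same shares. The additional ones were DHRS4, a retinal reductase (0.33 ± 0.13), and RLBP1, the retinal carrier of the pigment epithelium (-0.49 ± 0.17). RLBP1 was detected on only 4 of the 7 arrays, so its signal was partly near background.

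No receptor gene passed, and the intervals were wide for some. RARA had a difference of 0.29 (95% interval -0.28 to 0.85), RXRA of 0.00 (-0.28 to 0.28) and RXRB of -0.27 (-0.59 to 0.06). RXRA read 9.61, 9.65 and 9.49 with ATRA, 9.59 and 9.58 with 9-cis RA and 9.64 and 9.66 with EtOH, so the ATRA range covered both 9-cis RA samples and reached EtOH. Of 10 measured receptors and coregulators, and of 5 measured RXR partners, 0 differed at an unadjusted p under 0.05 in either direction, where 11.8% of all genes did. With so few members a count of 0 is near that share. The RXR partner nearest to it was PPARD (0.32 ± 0.15), and NR1H3, which encodes LXR alpha, had -0.39 ± 0.22. RARG and STRA6 were not analysed here.

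**Figure D2:**
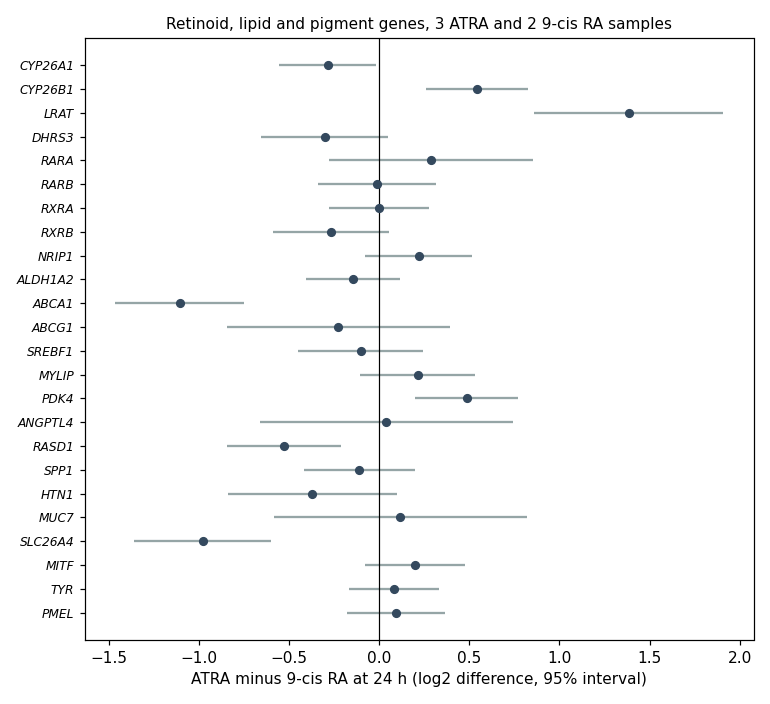
ATRA minus 9-cis RA difference at 24 h (log2) for the retinoid, lipid, pigment and secreted-protein genes described in the text, with 95% intervals from 3 ATRA and 2 9-cis RA samples. LRAT lies farthest to the right, and ABCA1 and SLC26A4 farthest to the left. None of these genes passed the adjusted test.

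Targets of the receptors that pair with RXR were described as lists. Of 15 measured LXR targets none passed, and 1 was higher and 4 were lower with ATRA at an unadjusted p under 0.05. Their median was -0.21 against -0.04 over all genes. In 8 of the 15 the ATRA samples lay wholly below the 9-cis RA samples, against 20.7% of all genes. In 2 they lay wholly above, against 10.9% of all genes. The shares of all genes at that unadjusted level were 3.62% higher and 8.2% lower. The LXR median shrank to -0.0915 without background correction and -0.0864 in the authors' values, where the median of all genes was -0.0214 and -0.0166. Besides ABCA1, the lower ones were LPCAT3, which inserts polyunsaturated chains into phospholipids (-0.48 ± 0.14), APOC1, an apolipoprotein (-0.50 ± 0.17), and SCD, the stearoyl-CoA desaturase (-0.37 ± 0.15). LPCAT3 read 9.12, 9.14 and 9.30 with ATRA, 9.70 and 9.62 with 9-cis RA and 8.89 and 8.85 with EtOH. PLTP, the phospholipid transfer protein, went the other way (0.44 ± 0.14), with 8.76, 8.87 and 8.52 in ATRA samples, 8.30 and 8.26 in 9-cis RA samples and 9.34 and 9.45 in EtOH samples. SREBF1, a master regulator of fatty acid synthesis, was at -0.10 (95% interval -0.45 to 0.25) and MYLIP, which degrades the LDL receptor, at 0.21 (-0.10 to 0.53). ABCG1 was detected on no array of either group.

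Of 15 measured PPAR targets and fatty acid oxidation genes, 1 was higher and 3 were lower at that level (3.62% and 8.2% of all genes), and the median was -0.11. PDK4, a kinase that shuts pyruvate dehydrogenase, read 6.93, 6.95 and 6.71 in ATRA samples, 6.35 and 6.42 in 9-cis RA samples and 7.30 and 7.22 in EtOH samples. Both isomers were below EtOH, 9-cis RA further than ATRA, with a difference of 0.49 ± 0.13 (adjusted p = 0.343). FABP3, a fatty acid binding protein, had -0.74 ± 0.20 and CPT2, which takes acyl chains into the mitochondrial matrix, -0.41 ± 0.16. ANGPTL4, an inhibitor of lipoprotein lipase, had 0.04 with a wide 95% interval of -0.66 to 0.74.

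KLF9, a transcription factor induced by thyroid hormone, was the only one of 4 measured thyroid hormone receptor targets at an unadjusted p under 0.05. It read 9.11, 9.21 and 9.64 with ATRA, 10.11 and 10.08 with 9-cis RA and 7.60 and 7.46 with EtOH. All retinoid samples lay above EtOH, and 9-cis RA above ATRA, by a difference of -0.77 ± 0.20 (adjusted p = 0.338). Of the vitamin D receptor targets SPP1 alone was measured; this secreted phosphoprotein read 13.00, 12.65 and 12.66 with ATRA, 12.82 and 12.95 with 9-cis RA and 9.57 and 9.50 with EtOH, and its groups overlapped (difference -0.11, 95% interval -0.42 to 0.20, second probe 0.25).

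**Figure D3:**
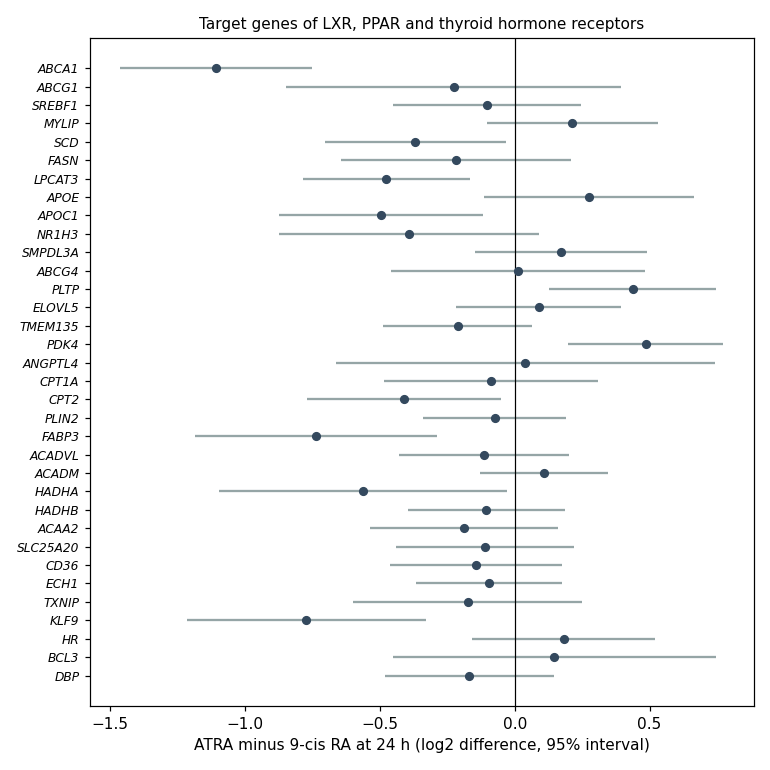
ATRA minus 9-cis RA difference at 24 h (log2, 95% interval, 3 ATRA and 2 9-cis RA samples) for the measured targets of LXR (ABCA1 to TMEM135), of PPAR and fatty acid oxidation (PDK4 to TXNIP) and of the thyroid hormone receptor (KLF9 to DBP). Most intervals cover 0. ABCA1, FABP3 and KLF9 lie farthest to the left, and PDK4 and PLTP farthest to the right.

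Some genes that lay far above EtOH with both isomers stood higher with 9-cis RA. SLC26A4, the anion exchanger pendrin, read 7.29, 7.18 and 7.73 with ATRA, 8.41 and 8.34 with 9-cis RA and 4.54 and 4.64 with EtOH, where it was detected on 0 of 3 arrays. The groups did not overlap, as in 20.7% of all genes in this direction. The difference was -0.98 ± 0.17 (95% interval -1.36 to -0.60, adjusted p = 0.114). SLC26A4 passed in 3 of 17 other settings, with -1.14 (adjusted p = 0.0391) without ATRA replicate 4, and its difference was -0.67 without background correction and -0.55 in the authors' values. RASD1, a small Ras-like GTPase, read 9.34, 9.18 and 9.17 with ATRA, 9.72 and 9.80 with 9-cis RA and 5.69 and 5.54 with EtOH (difference -0.53 ± 0.14, adjusted p = 0.349). HTN1, a salivary histatin, had -0.37 (95% interval -0.84 to 0.10) and MUC7, a salivary mucin, 0.12 (-0.58 to 0.82), with ATRA replicate 4 the lowest retinoid sample for each.

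Pigment genes gave small differences, with a median of 0.10 that was -0.0034 when arrays were scaled to equal medians. The median of all genes was -0.0351 and, with that scaling, -0.0758. Of 13 measured genes of melanin synthesis and the melanosome matrix, 3 were higher with ATRA at an unadjusted p under 0.05 and 0 were lower: SLC24A5, a melanosomal cation exchanger (0.47 ± 0.11), OCA2, a melanosomal membrane transporter (0.37 ± 0.12), and GPR143, the receptor affected in ocular albinism (0.46 ± 0.18). Of all genes 3.62% were higher and 8.2% lower at that level. SLC24A5 read 8.78, 8.93 and 8.79 with ATRA, 8.39 and 8.33 with 9-cis RA and 8.37 and 8.48 with EtOH. None passed, with adjusted p-values of 0.295 for SLC24A5, 0.367 for OCA2 and 0.397 for GPR143. TYR, the first enzyme of melanin synthesis, was at 0.08 (95% interval -0.17 to 0.33), PMEL, the fibril protein of the melanosome, at 0.10 (-0.18 to 0.37) and MITF, the lineage transcription factor, at 0.20 (-0.08 to 0.48). Of 14 measured melanocyte and neural crest factors and receptors, 1 was higher and 1 lower at that unadjusted level. The lower was MC1R, the melanocortin receptor (-0.43 ± 0.14), and the higher was SNAI2 (0.45, second probe 0.58).

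Other programmes were described in the same way, and ECM1 was the only member of any list to pass. Of 24 measured interferon-stimulated genes, 1 was higher and 6 were lower with ATRA at an unadjusted p under 0.05 (3.62% and 8.2% of all genes), and the median was -0.15. ISG20, an exonuclease, read 6.09, 6.01 and 6.05 with ATRA, 7.01 and 7.02 with 9-cis RA and 5.71 and 5.60 with EtOH (difference -0.97 ± 0.19, adjusted p = 0.196). It was detected on 2 of 4 ATRA and 3 of 3 9-cis RA arrays. IRF7, a transcription factor of the interferon response, had -0.62 ± 0.13 and UBE2L6, an ISG15 conjugating enzyme, -0.75 ± 0.18, though a second UBE2L6 probe had 0.27. IFIT3 was the higher one (0.72 ± 0.31).

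Of 34 measured glycolysis and hypoxia genes, 0 were higher and 7 were lower at that level, led by the glucose transporter SLC2A3 (-0.68 ± 0.19), the regulatory enzyme PFKFB4 (-0.60 ± 0.20) and the aldolase ALDOC (-0.46 ± 0.17). Of 33 genes of the unfolded protein and amino acid response, 1 was higher and 6 lower, and of 19 measured cholesterol synthesis genes 3 were higher and 0 lower; over all genes the shares were 3.62% and 8.2%. The cholesterol genes were MVK, mevalonate kinase (0.56 ± 0.16), LSS, lanosterol synthase (0.42 ± 0.16, second probe -0.31), and IDI1, an isoprenoid isomerase (0.33 ± 0.13).

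Of 14 measured YAP and TEAD targets, 1 was higher and 4 were lower, FOXF2, a forkhead factor (0.53 ± 0.12), and WWC1, a Hippo pathway scaffold (-0.62 ± 0.17), among them; over all genes the shares were 3.62% and 8.2%. Of 17 measured integrins and cadherins, 1 was higher and 3 lower, with CDH2, N-cadherin, at 5.48, 5.71 and 5.41 in ATRA samples, 6.38 and 6.46 in 9-cis RA samples and 5.94 and 5.60 in EtOH samples (-0.88 ± 0.19, adjusted p = 0.228). HRK, a BH3-only activator of apoptosis, had -0.59 ± 0.11, and MERTK, a receptor for the uptake of apoptotic cells, -0.59 ± 0.13. In 32 DNA replication and 38 ribosomal protein genes, 0 differed at this level in either direction, against 11.8% of all genes. Within array set 1 alone the replication genes CDT1 (-0.69) and POLE (0.60) did pass, as 9.48% of all genes did.

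The same comparison at 48 h, in other samples, gave 3 passing genes (0.0281%): SERPINA3 and ECM1, again lower with ATRA, and CYP26B1, which was higher with ATRA. SERPINA3 read 5.53, 5.36 and 5.18 with ATRA, 7.63 and 6.99 with 9-cis RA and 4.60 and 4.59 with EtOH (difference -1.96 ± 0.20, adjusted p = 0.0047). ECM1 read 8.02, 8.01 and 7.99 with ATRA, 9.30 and 9.28 with 9-cis RA and 7.75 and 7.79 with EtOH (difference -1.29 ± 0.11, adjusted p = 0.00141), and its second probe had -1.39. In both genes the ATRA and 9-cis RA samples were again wholly apart, as they were in 23.6% of all genes at 48 h in either direction. At an unadjusted p under 0.05 there were 701 genes (6.57%), of which 3.45% of all genes were higher and 3.12% lower with ATRA. The glycolysis and hypoxia genes then had 6 higher and 0 lower, against 0 and 7 at 24 h, and the interferon-stimulated genes 0 higher and 1 lower, with a median of 0.01.

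CYP26B1 read 8.74, 8.84 and 8.89 with ATRA at 48 h, against 6.56 and 6.46 with 9-cis RA and 5.84 and 5.88 with EtOH. The ATRA samples lay close together and far above both other groups, with a difference of 2.32 ± 0.13 (95% interval 2.04 to 2.60, adjusted p = 3.9e-05). It was the only gene of 10673 (0.00937%) whose difference changed between the times in the test of the change itself (24 h minus 48 h, -1.78 ± 0.18, adjusted p = 0.0152). The change was -1.28 without background correction and -1.05 in the authors' values, and it passed in both. The call was lost without either 24 h 9-cis RA sample (adjusted p = 0.184 and 0.212), without any of 4 of the 5 samples at 48 h, within array set 2 (adjusted p = 0.957) and with arrays scaled to equal medians (adjusted p = 0.0807).

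LRAT and ABCA1 were closer at 48 h. LRAT read 9.40, 9.22 and 8.62 with ATRA, 8.77 and 8.66 with 9-cis RA and 5.43 and 4.95 with EtOH, so that ATRA replicate 4 now lay below both 9-cis RA samples (difference 0.36, 95% interval -0.16 to 0.89). ABCA1 read 9.18, 9.47 and 9.51 with ATRA, 9.89 and 9.72 with 9-cis RA and 8.28 and 8.60 with EtOH (difference -0.42, 95% interval -0.78 to -0.07). The change between the times did not pass for LRAT (1.02 ± 0.33, adjusted p = 0.38) or ABCA1 (-0.69 ± 0.23, adjusted p = 0.38). SLC26A4 had -0.91 ± 0.17 at 48 h, KLF9 -0.79 ± 0.20 and RASD1 -0.59 ± 0.14, close to their values at 24 h. GALM had -0.06 ± 0.14 and ISG20 0.07 ± 0.19.

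Of the 44 genes at an unadjusted p under 0.001 at 24 h, 11 higher and 33 lower with ATRA, 37 (84.1%) had the same sign at 48 h and 25 (56.8%) were also at an unadjusted p under 0.05 in that direction, with 0 in the opposite one. For all genes these shares were 39.9% and 2.99%. Of the 1261 genes at an unadjusted p under 0.05 at 24 h, 460 (36.5%) had the same sign at 48 h, which is below the share of all genes. The arrays of the 24 h and 48 h groups are separate samples, but the spread of each gene was taken from the same fit to both times. Genes with a low p at 24 h thus tend to have a small spread, which also lowers their p at 48 h. The share at an unadjusted p under 0.05 is therefore not an independent follow-up.

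**Figure D4:**
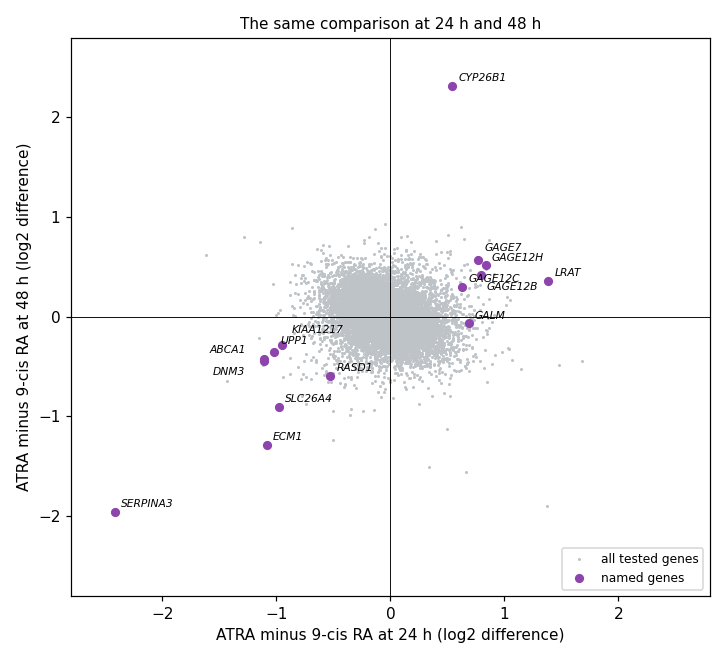
ATRA minus 9-cis RA difference (log2) of every tested gene at 24 h (horizontal) and at 48 h (vertical), each from 3 ATRA and 2 9-cis RA samples; the named genes are drawn larger. SERPINA3 and ECM1 lie at the lower left at both times, CYP26B1 lies at 0.54 at 24 h and at 2.32 at 48 h, and LRAT and ABCA1 lie nearer to 0 at 48 h than at 24 h.

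Fitted within array set 1 alone, which leaves 2 arrays for each compound and no replicate 4, 1012 genes passed at 24 h, 460 higher and 552 lower with ATRA (9.48%). Within set 2 alone, which has 2 ATRA arrays and 1 9-cis RA array, 0 passed by limma and 223 had an unadjusted p under 0.05. ATRA replicate 4 was compared with the set 2 arrays of ATRA replicate 1-2 and of 9-cis RA. In 207 of those 1012 genes (20.5%) it was nearer to the ATRA array, against 38% of all genes. Both of these set 2 arrays share a sample number with a set 1 array that helped to pick the 1012 genes. The share among the 1012 is thus not independent of how they were picked. Without ATRA replicate 4 in the averaged samples, 6 genes passed: SERPINA3, ABCA1, SLC26A4, ECM1, GPAT3 and SF1.

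Genes with the largest fitted differences but poor p-values in the averaged samples show this spread. YWHAE, a 14-3-3 protein, read 11.38, 11.14 and 9.99 with ATRA, 8.99 and 9.32 with 9-cis RA and 10.80 and 11.32 with EtOH. CDC42SE1, an effector of CDC42, read 6.76, 6.61 and 8.66 with ATRA, 9.08 and 8.84 with 9-cis RA and 6.54 and 6.08 with EtOH. Within array set 1, which holds no replicate 4, its difference was -2.31 and passed (limma, adjusted p = 0.00013). NACC1, a transcriptional repressor, read 8.73, 8.53 and 7.21 with ATRA, 6.81 and 6.54 with 9-cis RA and 8.84 and 9.04 with EtOH. In these 3 genes, chosen after their values were seen, ATRA replicate 4 lay toward the 9-cis RA samples while the other ATRA samples lay near EtOH (differences 1.68 ± 0.54, -1.62 ± 0.66 and 1.48 ± 0.54). Among the genes described earlier, ATRA replicate 4 was the ATRA sample nearest to 9-cis RA for some, such as LRAT (8.14), ABCA1 (8.03), SLC26A4 (7.73) and KLF9 (9.64). For others, such as SERPINA3, KIAA1217, DNM3, CYP26A1 and RASD1, it was the farthest. For ECM1, CYP26B1 and GALM it lay between the other ATRA samples.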

How the data were processed

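The intensities of each probe on 20 Illumina BeadChips were deposited by the authors without normalisation, with a deposited detection p-value beside each. The authors' deposited series matrix holds log2 values made with lumi, per the submitters' processing notes, and served as an alternative. Intensities were background corrected with negative controls inferred from the detection p-values, quantile normalised and log2 transformed with neqc of limma 3.58.1 (offset 16) in R 4.3.3. Probes detected (p under 0.01) on at least 3 of 20 arrays were kept (18269 of 47323). A single gene is listed for 14194 of them, and the brightest probe represented each of 10673 genes. Arrays sharing a sample number were averaged. A model with 4 group means was fitted to the 10 retinoid samples and moderated with eBayes (residual degrees of freedom 6, prior 4.27). Levels of different probes are not compared. Array sets were found from the counts of detected probes once the data had been seen, and precision is limited by how few arrays there are. Probes were named only through the platform annotation, and promoter sequences come from RefSeq (GRCh38.p14).

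Named genes are, at 24 h, up to 12 passing genes in each direction, filled to 6 with the lowest p where fewer passed, the passing genes at 48 h and of the change between times, a set of retinoid, lipid, pigment and secreted-protein genes, and up to 3 members of each described list with the lowest p. The members and the 49 lists were chosen with earlier results of these data known. The fit was tested on simulated data with independent normal noise for each gene. Those data held no array sets, no shared sample numbers and no sample like ATRA replicate 4. The simulation therefore does not bear on how these features move the calls. Figures were drawn with matplotlib 3.10.9 in Python 3.11.15.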

Additional observations from a re-analysis of the deposited data

Results flagged for a closer look

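The difference between ATRA and 9-cis RA in CYP26B1 was not the same at both times by the test of the change itself. It was 0.54 ± 0.13 at 24 h and 2.32 ± 0.13 at 48 h (SE, log2), a change of -1.78 ± 0.18 (24 h minus 48 h, limma, adjusted p = 0.0152). Every ATRA sample was above every 9-cis RA sample at both times. Over all genes the samples did not overlap, in either direction, for 31.6% at 24 h and 23.6% at 48 h. The change passed in 12 of 20 other settings and ran from -1.85 to -1.05, the smallest being in the authors' values (adjusted p = 0.00257), where the 24 h difference was 0.16.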

How the results depend on the processing

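The number of passing genes depended on the setting. At 24 h (2 genes) it was 11 without background correction, 10 in the authors' values, 7 with probes detected on all 7 arrays, 7 with all 14 samples in the fit, 1 with only the 5 samples, 21 with the array set as a term, 1012 within set 1, 0 within set 2, 1 with the mean of a gene's probes and 9 with an intensity trend. At 48 h (3 genes) it was 5 without background correction, 1 with probes detected on all 7 arrays, 9 with the array set as a term, 1 within set 1 and 0 within set 2. For the change between times (1 gene) it was 0 with equal medians, 0 with probes detected on all 7 arrays, 5 within set 1 and 0 within set 2. Leaving out 1 sample gave 0 to 8 genes at 24 h, 1 to 3 at 48 h and 0 to 1 for the change; the 6 to 8 came without ATRA replicate 4 at 24 h or at 48 h, and the 0 at 24 h without either 9-cis RA sample, which leaves a lone sample assumed to vary like the other groups. SERPINA3 and CYP26B1 were not among the genes with probes detected on all 7 arrays, so neither could be called under that setting. The causes were otherwise not tested.

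SERPINA3 passed in 13 of 16 other settings and ECM1 in 11 of 17. Besides the samples left out above, ECM1 missed the threshold with equal medians (adjusted p = 0.0529), with only the 5 samples (0.179), within set 2 (1) and with the mean of its probes (0.171), and SERPINA3 within set 2 (0.158). The median of the interferon-stimulated genes was -0.0816 without background correction, -0.0601 in the authors' values and -0.086 with probes detected on all 7 arrays, against -0.15. Of 34 named genes recomputed under these settings, signs turned in the following, none of which passed in the averaged samples: with equal medians RXRA (-0.0886), TYR (-0.0034) and PMEL (-0.149), with the array set as a term RARB (0.019), within set 2 RARB (0.00414), RXRA (-0.0378) and PMEL (-0.00907), and with the mean of probes RARB (0.154), ALDH1A2 (0.0577) and SPP1 (0.0714). Leaving out 1 sample gave -0.0578 to 0.0268 for RARB, -0.0329 to 0.0478 for RXRA, -0.115 to 0.232 for ANGPTL4 and -0.0703 to 0.414 for MUC7. Of other list members compared between sets, CXCL8 had -0.7707 within set 1 (adjusted p = 0.0343) and 0.3562 within set 2, and HPS3 0.4651 and -0.0542. No paired analysis was possible because nothing in the labels numbers an ATRA sample to match a 9-cis RA sample. Signals near background, as for SERPINA3 with ATRA and for DNM3 and ABCG1, give only bounds.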

Other observations

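Detected probes without a single listed gene numbered 4075. At 24 h, 0 of them passed limma's test and 259 (6.36%) had an unadjusted p under 0.05.

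Some members of other lists stood apart between the isomers without passing. The samples of the isomers did not overlap in 31.6% of all genes at 24 h, 10.9% higher and 20.7% lower with ATRA. GDF15, a stress-induced cytokine that lay far above EtOH with both isomers, read 12.24, 12.00 and 11.88 with ATRA, 12.50 and 12.46 with 9-cis RA and 9.95 and 9.78 with EtOH (difference -0.44 ± 0.14, adjusted p = 0.367). CRYGC, a lens crystallin, read 7.02, 7.29 and 7.67 with ATRA, 7.89 and 7.77 with 9-cis RA and 4.47 and 4.67 with EtOH (-0.50 ± 0.18, adjusted p = 0.386). In both genes the ATRA samples were the lower of the retinoid samples. BCAN, a brain proteoglycan, was 0.52 ± 0.13 at 24 h and 0.66 at 48 h, but its other probes had 0.35 and 0.05 at 24 h. CDK6, a G1 kinase, had -0.68 ± 0.18, with ATRA replicate 4 (8.79) nearest to the 9-cis RA samples (9.26 and 9.12). RNU1-3, a small nuclear RNA, had 0.74 ± 0.25.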
